A study of Homo sapiens with 15 samples.

Results

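The interferon-stimulated effector genes described here are 48 named antiviral, ISG15-conjugation, nucleotide-metabolism and chemokine genes, read in 2 ovarian cancer cell lines on Affymetrix expression arrays. They were chosen by gene symbol, and 47 of the 48 had a probe set with a single symbol, out of 19775 such genes in all; UBA7, the enzyme that activates ISG15, was not analysed here. The 15 arrays form 5 groups of 3: CP70 given decitabine and PXD101, CP70 given decitabine, CP70 given PXD101, untreated CP70, and untreated A2780. A2780 is a human ovarian carcinoma line sensitive to cisplatin, and CP70 is a resistant line derived from it. Decitabine, a cytidine analog, traps DNA methyltransferases and so lowers DNA methylation as cells divide, and PXD101 (belinostat) inhibits histone deacetylases. Decitabine was given at 0.1 µM for 48 h in both arms that had it. PXD101 was given at 0.1 µM, for 48 h when given alone and for 24 h when given with decitabine. RNA was taken from treated cells 96 h after drug removal, and when it was taken from untreated cells is not stated in the labels. The labels call the replicates biological without saying what was repeated, so that p-values measure the spread between these samples.

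As background, cells that sense viral nucleic acid release interferons, and cells that receive one start a kinase signal at the receptor that ends in the nucleus, where IRF9 is part of the complex ISGF3. ISGF3 binds a short repeat, the interferon-stimulated response element, in the promoters of effector genes such as these, and their products degrade viral RNA, block entry and budding, modify proteins with ISG15 or ADP-ribose, and call in lymphocytes. Drugs that inhibit DNA methyltransferases are known to raise genes of this class in several cancer lines, some time after exposure.

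Promoter sequence was read for the members from the RefSeq promoter table (GRCh38.p14), which lists 39 of the 48. The windows below are shown because they hold the response element found in most of the listed members, before starts of members with large changes. Each is the 160 bases before the annotated start, 5′ to 3′ on the gene's own strand, and capitals mark matches to the response element, read as GAAA, any 2 bases and GAAA again, or as TTTC, any 2 bases and TTTC on the other strand. OAS1 is shown for contrast, as a member with a large change whose window held no match to this pattern. Near its start the OAS1 window does repeat GAAA with a shorter gap (gaaacgaaa), which the pattern does not count.
IFI27: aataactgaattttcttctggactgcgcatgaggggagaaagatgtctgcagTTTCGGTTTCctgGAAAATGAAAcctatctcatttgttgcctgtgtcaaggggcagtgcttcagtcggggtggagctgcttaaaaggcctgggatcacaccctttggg
RSAD2: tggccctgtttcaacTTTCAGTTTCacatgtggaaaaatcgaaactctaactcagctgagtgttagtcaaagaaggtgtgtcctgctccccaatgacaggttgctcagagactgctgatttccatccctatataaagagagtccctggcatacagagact
BST2: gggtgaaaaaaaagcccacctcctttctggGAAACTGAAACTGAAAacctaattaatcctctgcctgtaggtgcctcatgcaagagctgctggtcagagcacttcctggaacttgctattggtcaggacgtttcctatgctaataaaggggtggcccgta
IFI44: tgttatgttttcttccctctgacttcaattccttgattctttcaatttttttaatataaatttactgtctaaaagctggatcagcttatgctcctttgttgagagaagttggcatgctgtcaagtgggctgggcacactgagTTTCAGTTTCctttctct
IFI6: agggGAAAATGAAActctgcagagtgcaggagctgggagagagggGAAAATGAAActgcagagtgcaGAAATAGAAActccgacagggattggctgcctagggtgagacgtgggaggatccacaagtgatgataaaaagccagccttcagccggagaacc
HERC5: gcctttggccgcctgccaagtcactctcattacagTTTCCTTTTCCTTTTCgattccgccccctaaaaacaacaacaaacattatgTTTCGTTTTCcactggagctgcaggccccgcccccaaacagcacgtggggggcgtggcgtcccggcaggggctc
IFIT3: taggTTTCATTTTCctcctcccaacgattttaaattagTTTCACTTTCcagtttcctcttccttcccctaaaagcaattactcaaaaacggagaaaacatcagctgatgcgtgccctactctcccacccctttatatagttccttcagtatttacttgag
ISG15: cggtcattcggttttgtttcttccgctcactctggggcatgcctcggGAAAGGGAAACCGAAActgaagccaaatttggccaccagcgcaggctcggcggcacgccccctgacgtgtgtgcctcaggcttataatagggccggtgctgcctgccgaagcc
OAS1: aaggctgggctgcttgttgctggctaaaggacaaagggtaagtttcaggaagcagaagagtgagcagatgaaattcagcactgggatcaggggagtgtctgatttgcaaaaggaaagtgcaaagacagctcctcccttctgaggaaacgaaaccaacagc

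These windows lie at chr14:94110576-94110735 (plus strand), chr2:6877617-6877776 (plus), chr19:17405631-17405790 (minus), chr1:78649629-78649788 (plus), chr1:27672193-27672352 (minus), chr4:88456959-88457118 (plus), chr10:89327837-89327996 (plus), chr1:1013337-1013496 (plus) and chr12:112906802-112906961 (plus). IFI6 held 3 separate matches, while in BST2, HERC5 and ISG15 neighbouring matches shared bases and so appear as 1 longer run of capitals. HERC5 had a further match nearer its start. Of the 52 windows of 250 bases listed for the 39 members, 30 (57.7%) held at least 1 match on either strand, against 3.02% of all 35116 windows in the table. Counted by gene, 26 of 39 members (66.7%) had a window with a match, against 3.71% of all 27305 genes. Among the genes measured here, 2.55% of windows and 3.39% of genes had one. Member windows were poorer in CpG, the dinucleotide that DNA methyltransferases modify. Their median was 5, against 11 in all windows and 17 in windows of the genes measured here. They ranged widely, with 0 in the IFI44 windows and 36 in one of the RSAD2 windows. A match is a run of letters, not a measured binding site, and DNA methylation was not measured here. The map of matches shows where they lie relative to each start.

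**Figure D1:**
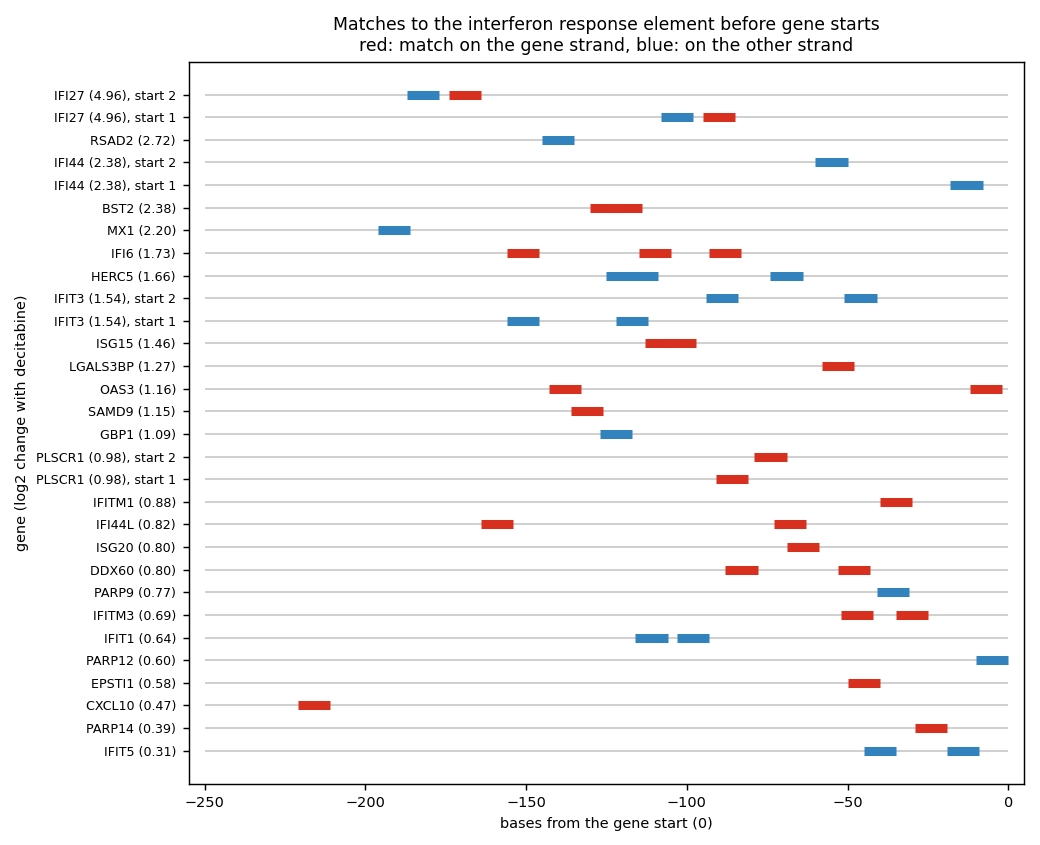
Matches to the interferon-stimulated response element in the 250 bases before the annotated starts of members that hold at least 1, ordered by the log2 change of the gene with decitabine over untreated CP70 (in brackets). Red bars are matches on the gene's strand and blue bars matches on the other strand; most of the matches lie within the 160 bases nearest the start, and 30 windows of 26 genes are drawn.

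The values are log2 intensities as deposited, and array medians lay between 4.998 and 5.057. Untreated CP70 replicate 2 stood apart: its correlation across genes was 0.995 to 0.997 with arrays of the PXD101 group, but 0.983 and 0.986 with its own group. The labels were kept, and comparisons with untreated CP70 are given with and without replicate 2. As a sign of RNA quality, the difference of the 3′ and 5′ actin probe sets was 0.424 to 0.491 with both drugs, 0.342 to 0.787 with decitabine, 0.384 to 0.508 with PXD101, 0.629 to 0.859 in untreated CP70 and 0.337 to 0.377 in A2780; it thus moved with the contrasts against untreated CP70, and its part in them was not tested. Of 12 epithelial and ovarian carcinoma markers, PAX8, FOLR1, KRT8, KRT18 and EPCAM averaged above the median gene (6.28) in every group. CDH1, WT1 and MUC16 were below the lower quartile of gene values (4.34) on every array. A gene was called where its limma adjusted p (Benjamini-Hochberg over 19775 genes, one fit of all 15 arrays) was under 0.05, and a change is one group's mean log2 value minus another's, from 3 arrays each.

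Decitabine raised a large part of these genes in CP70. Called higher were 31 of 47 members and lower none, where 4.87% of all genes were called higher (3.14% lower), and the median change was 0.88 for the members and 0.02 for all genes. All 47 changes were positive, from 0.11 for EIF2AK2 to 4.96 for IFI27, and 43 members had all 3 decitabine arrays above all 3 untreated arrays, as 11.3% of all genes did (8.63% lay wholly below). A call with a change of at least 2-fold was seen in 20 members and in 1.46% of all genes. Rank product, the test the submitters name, called 18 members higher (1.30% of all genes) and 0 lower (0.592%). Leaving out untreated CP70 replicate 2 gave 30 members called higher and a median of 0.96, with 14.2% of all genes called higher in that fit. Keeping it as the sole untreated array, assumed to vary as the other groups do, gave 15 members and 0.81, with 2.45% of all genes. In bulk samples such as these, more expressing cells and more RNA per cell cannot be told apart. The heat map of the members shows the values behind these counts.

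**Figure D2:**
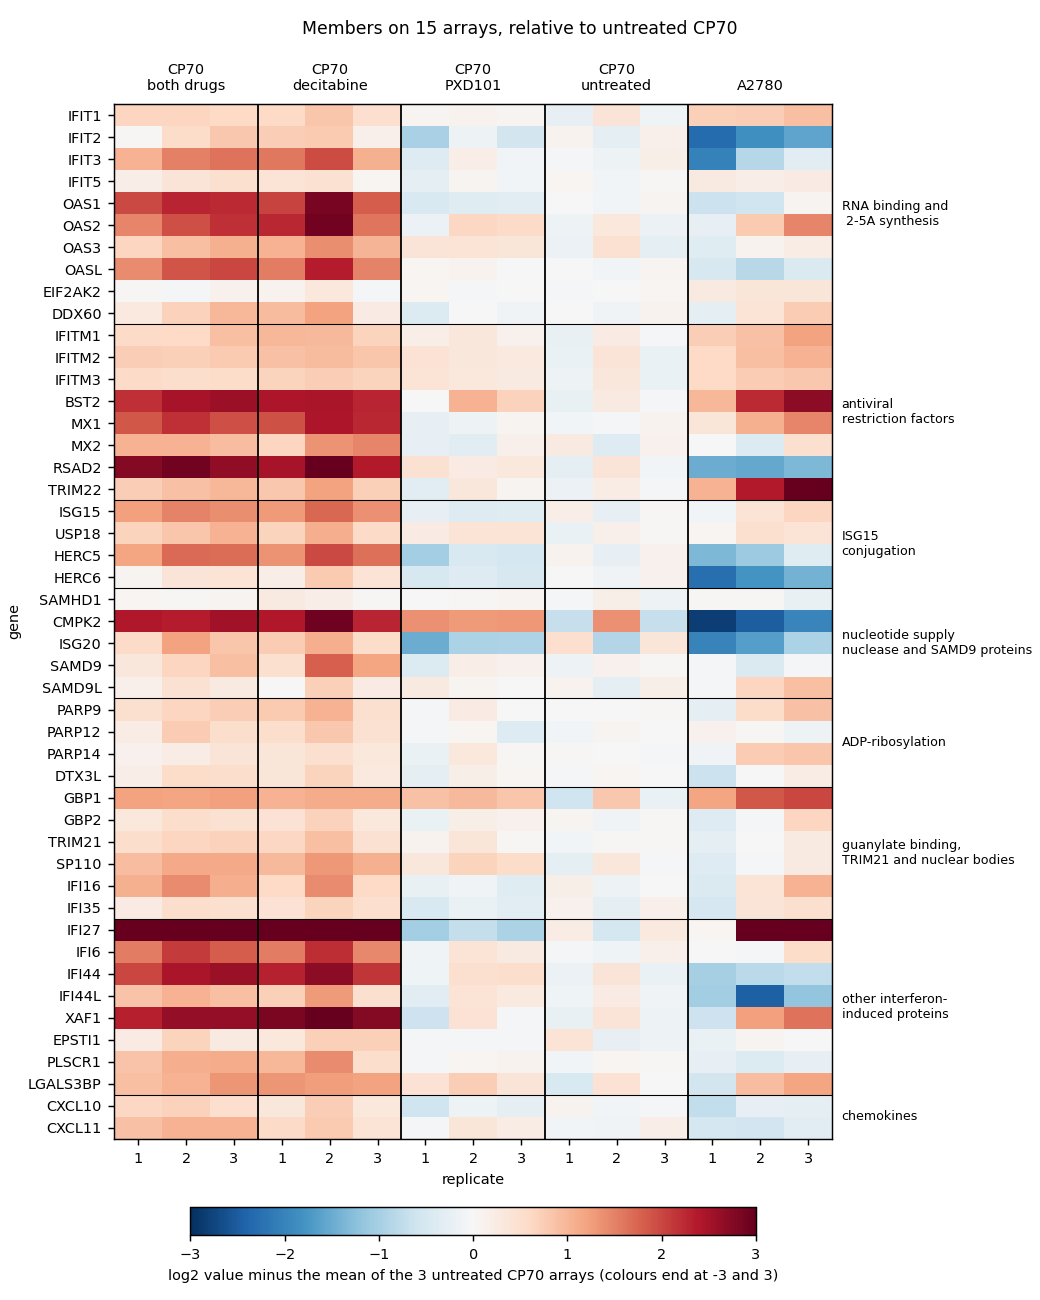
Log2 value of each of the 47 members on each of the 15 arrays, minus the mean of the 3 untreated CP70 arrays (colour scale, ending at -3 and 3), with genes in rows grouped by role and arrays in columns grouped by treatment. The columns with both drugs and with decitabine are red for nearly all genes, the PXD101 columns are close to white apart from CMPK2, GBP1, ISG20 and a few others, and A2780 holds both colours.

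**Figure D3:**
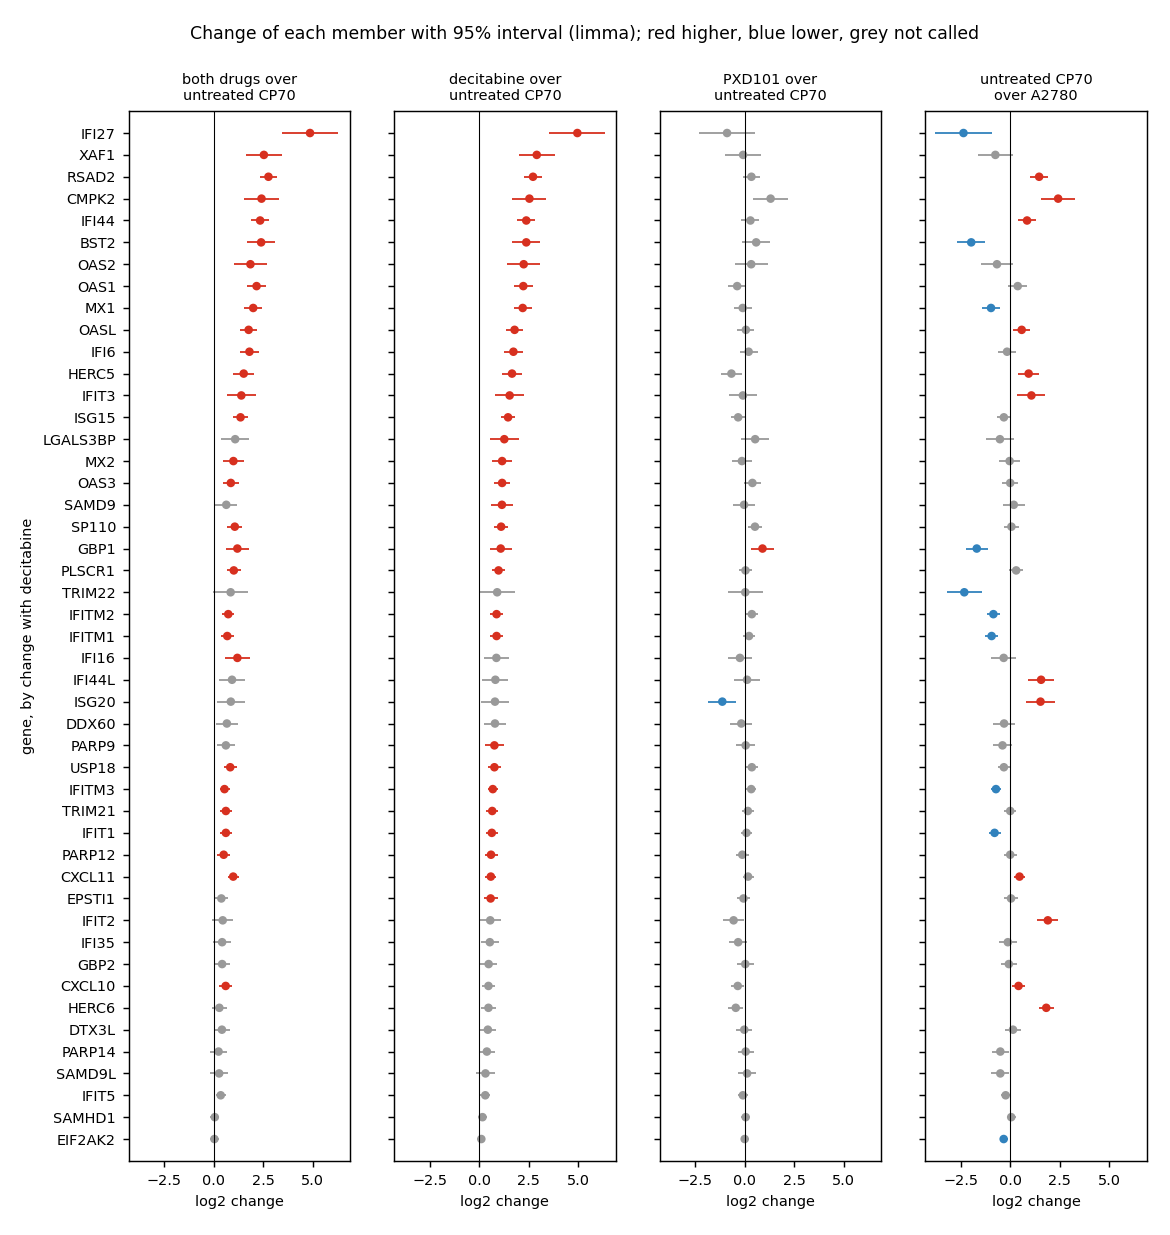
Log2 change of each member with its 95% interval from limma in 4 contrasts, ordered by the change with decitabine; red points were called higher, blue lower and grey not called. With both drugs and with decitabine all points lie right of 0, 29 and 31 of them red, while untreated CP70 over A2780 has 12 red and 10 blue.

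Among the genes for RNA binding and oligoadenylate synthesis, 6 of 10 rose with decitabine (median change 0.98). The oligoadenylate synthetases make the messenger that switches on RNase L, and all 3 were called, as was OASL, a relative without the synthetic activity. OAS1 read 7.54, 7.83 and 7.79 with both drugs, 7.58, 8.40 and 7.38 with decitabine, 5.09, 5.18 and 5.24 with PXD101, 5.55, 5.47 and 5.64 in untreated CP70, and 4.92, 4.96 and 5.63 in A2780. Every array given decitabine, alone or with PXD101, lay above all 9 others, and the change over untreated CP70 was 2.23 ± 0.22 (SE; 4.7-fold, adjusted p = 1.40e-05). OAS2 read 6.49, 6.94 and 7.21 with both drugs, 7.27, 7.92 and 6.62 with decitabine, 4.83, 5.63 and 5.59 with PXD101, 4.87, 5.34 and 4.84 in untreated CP70, and 4.76, 5.81 and 6.49 in A2780. It changed by 2.25 ± 0.39 (adjusted p = 0.00222), and A2780 replicate 3 lay at the level of the lowest arrays given both drugs. OASL read 7.82, 8.30 and 8.40 with both drugs, 7.93, 8.75 and 7.90 with decitabine, 6.46, 6.5 and 6.42 with PXD101, 6.41, 6.31 and 6.49 in untreated CP70, and 5.93, 5.58 and 5.96 in A2780. Its change was 1.79 ± 0.20 (adjusted p = 4.22e-05) and the groups given decitabine did not overlap the rest. OAS3 rose less, by 1.16 ± 0.19 (adjusted p = 0.00167).

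In the IFIT family, IFIT1 binds viral RNA that lacks the host's cap methylation. IFIT3 and IFIT1 were called higher, while IFIT2 (0.56, adjusted p = 0.191) and IFIT5 (0.31, adjusted p = 0.137) were not called. IFIT2 thus changed nearly as much as IFIT1 (0.64), and differences between these genes were not tested. IFIT3 read 11.31, 11.78 and 11.88 with both drugs, 11.83, 12.21 and 11.33 with decitabine, 9.88, 10.45 and 10.18 with PXD101, 10.23, 10.11 and 10.43 in untreated CP70, and 8.22, 9.41 and 9.95 in A2780. It rose by 1.54 ± 0.34 (adjusted p = 0.0105), and all 9 arrays without decitabine were below the 6 with it. IFIT1 was already at 11.80 ± 0.34 (mean ± SD) in untreated CP70 and rose by 0.64 ± 0.14 (adjusted p = 0.0096); the change was 0.26 against untreated replicate 2 alone, and not called. EIF2AK2, the kinase PKR that halts translation on double-stranded RNA, ranged over all 15 arrays only between 9.01 and 9.45, with a difference of 0.11 ± 0.10 with decitabine (95% interval -0.10 to 0.32). DDX60, a helicase, differed by 0.80 ± 0.26 and was not called (adjusted p = 0.0753), although its decitabine arrays lay above the untreated ones.

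Of 8 antiviral restriction factors, 7 rose with decitabine (median 1.03), TRIM22 being the exception. RSAD2 (viperin), an enzyme that makes a chain-terminating nucleotide, read 8.01, 8.14 and 7.92 with both drugs, 7.73, 8.56 and 7.63 with decitabine, 5.70, 5.49 and 5.58 with PXD101, 4.95, 5.64 and 5.17 in untreated CP70, and 3.76, 3.71 and 3.91 in A2780. The step with decitabine was 2.72 ± 0.21 (6.58-fold; adjusted p = 7.82e-07), the smallest p among the members. BST2 (tetherin), which holds budding virions on the cell surface, read 8.21, 8.50 and 8.60 with both drugs, 8.45, 8.47 and 8.32 with decitabine, 6.03, 7.07 and 6.73 with PXD101, 5.80, 6.30 and 5.99 in untreated CP70, and 7.02, 8.26 and 8.71 in A2780. With decitabine it was 2.38 ± 0.33 above untreated CP70 (adjusted p = 0.00038) and inside the range of A2780, whose replicates 2 and 3 were near the treated level and whose replicate 1 was between. MX1, a dynamin-like GTPase, read 7.62, 7.93 and 7.67 with both drugs, 7.66, 8.17 and 8.0 with decitabine, 5.50, 5.60 and 5.84 with PXD101, 5.66, 5.72 and 5.86 in untreated CP70, and 6.12, 6.82 and 7.22 in A2780. It rose by 2.20 ± 0.21 (adjusted p = 1.05e-05) to a level above all 3 A2780 arrays. MX2, its neighbour on chromosome 21, read 5.08, 5.08 and 4.96 with both drugs, 4.68, 5.39 and 5.50 with decitabine, 3.80, 3.70 and 4.20 with PXD101, 4.31, 3.64 and 4.16 in untreated CP70, and 4.06, 3.62 and 4.52 in A2780. Its rise of 1.16 ± 0.24 (adjusted p = 0.00848) started from below the lower quartile of gene values.

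The IFITM proteins block fusion of enveloped viruses at endosomal membranes. IFITM1, IFITM2 and IFITM3 were high everywhere, from 10.33 to 12.74, and rose with decitabine by 0.88 ± 0.15, 0.88 ± 0.15 and 0.69 ± 0.12 (adjusted p = 0.002, 0.00162 and 0.0022). They are close copies of each other next to each other on chromosome 11, and each was read by 1 probe set of a kind that can match several transcripts, so that their levels may not be independent. In all 3, untreated CP70 replicate 2 was inside the range of the PXD101 arrays, and against it alone none of the 3 rises was called. TRIM22, a ubiquitin ligase that restricts several viruses, read 4.95, 5.10 and 5.22 with both drugs, 5.03, 5.43 and 4.94 with decitabine, 3.89, 4.56 and 4.31 with PXD101, 4.05, 4.45 and 4.17 in untreated CP70, and 5.27, 6.60 and 7.76 in A2780. It differed by 0.91 ± 0.41 with decitabine and was not called (adjusted p = 0.201); its A2780 arrays were the most spread, with replicate 3 far above replicate 1.

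ISG15 conjugation, in which a small ubiquitin-like protein is attached to newly made proteins, rose in 3 of its 4 measured members (median 1.12). ISG15 itself read 11.87, 12.12 and 12.02 with both drugs, 11.92, 12.37 and 12.01 with decitabine, 10.40, 10.25 and 10.28 with PXD101, 10.84, 10.40 and 10.67 in untreated CP70, and 10.56, 11.04 and 11.28 in A2780. It changed by 1.46 ± 0.17 (adjusted p = 6.12e-05), and the lowest array with decitabine was above every array without it. HERC5, the ligase that attaches ISG15 in human cells, read 7.92, 8.44 and 8.43 with both drugs, 8.09, 8.72 and 8.40 with decitabine, 5.72, 6.28 and 6.21 with PXD101, 6.85, 6.51 and 6.88 in untreated CP70, and 5.40, 5.66 and 6.39 in A2780. It changed by 1.66 ± 0.24 (adjusted p = 0.000597). USP18, which removes ISG15 and also dampens the type I receptor, read 7.22, 7.39 and 7.60 with both drugs, 7.22, 7.64 and 7.13 with decitabine, 6.80, 6.98 and 6.98 with PXD101, 6.37, 6.72 and 6.59 in untreated CP70, and 6.62, 7.04 and 6.98 in A2780. It changed by 0.77 ± 0.15 (adjusted p = 0.00574), with the lowest treated array close above A2780 replicate 2. HERC6, next to HERC5 and the ISG15 ligase of mouse, read 7.57, 7.88 and 7.90 with both drugs, 7.70, 8.28 and 7.91 with decitabine, 7.02, 7.12 and 7.01 with PXD101, 7.48, 7.38 and 7.63 in untreated CP70, and 5.24, 5.70 and 6.08 in A2780. Its difference with decitabine was 0.47 ± 0.18 (not called, adjusted p = 0.138), and it stood at 7.5 ± 0.13 in untreated CP70 (mean ± SD).

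Of the 5 genes for nucleotide supply, the nuclease and the SAMD9 proteins, 2 rose (median 0.80). CMPK2, a mitochondrial nucleotide kinase encoded next to RSAD2, read 9.45, 9.40 and 9.56 with both drugs, 9.46, 9.97 and 9.34 with decitabine, 8.42, 8.32 and 8.34 with PXD101, 6.37, 8.43 and 6.35 in untreated CP70, and 4.23, 4.58 and 5.07 in A2780. Untreated replicate 2 was at the PXD101 level and the other untreated arrays well below. The change with decitabine was 2.54 ± 0.40 (adjusted p = 0.0012), 3.23 without untreated replicate 2 and 1.16 against it alone. ISG20, an exonuclease that degrades single-stranded RNA, read 8.23, 8.87 and 8.49 with both drugs, 8.41, 8.74 and 8.22 with decitabine, 6.16, 6.70 and 6.73 with PXD101, 8.17, 6.79 and 8.02 in untreated CP70, and 5.65, 6.01 and 6.72 in A2780. Here too untreated replicate 2 was at the PXD101 level, this time below the other untreated arrays; the change with decitabine, 0.80 ± 0.33, was not called (adjusted p = 0.161). SAMD9, which restricts poxviruses, read 3.91, 4.21 and 4.47 with both drugs, 4.05, 5.35 and 4.74 with decitabine, 3.15, 3.75 and 3.70 with PXD101, 3.4, 3.69 and 3.59 in untreated CP70, and 3.50, 3.12 and 3.53 in A2780. Its rise of 1.15 ± 0.26 (adjusted p = 0.0127) was largest in decitabine replicate 2, and without that array it was not called. SAMD9L ranged from 3.90 to 5.07 over the 15 arrays and SAMHD1, which hydrolyses deoxynucleotides, from 8.17 to 8.67, and neither was called.

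ADP-ribosylation, the attachment of ADP-ribose to proteins, gave 2 calls of 4 (median 0.52). PARP9 read 7.97, 8.14 and 8.23 with both drugs, 8.27, 8.53 and 7.98 with decitabine, 7.42, 7.73 and 7.49 with PXD101, 7.47, 7.48 and 7.52 in untreated CP70, and 7.21, 8.05 and 8.37 in A2780. It changed by 0.77 ± 0.22 (adjusted p = 0.0454), close to the threshold, and DTX3L, the ubiquitin ligase with which it forms a complex, differed by 0.44 ± 0.19 (adjusted p = 0.18, not called). PARP12 read 3.96, 4.51 and 4.28 with both drugs, 4.28, 4.56 and 4.20 with decitabine, 3.69, 3.81 and 3.35 with PXD101, 3.66, 3.83 and 3.74 in untreated CP70, and 3.87, 3.77 and 3.58 in A2780. It changed by 0.60 ± 0.15 (adjusted p = 0.0231) near the low end of the scale. DTX3L read 9.11, 9.46 and 9.45 with both drugs, 9.28, 9.59 and 9.21 with decitabine, 8.62, 9.09 and 8.99 with PXD101, 8.88, 8.98 and 8.90 in untreated CP70, and 8.27, 8.91 and 9.15 in A2780. PARP14 read 7.95, 8.04 and 8.21 with both drugs, 8.19, 8.29 and 8.14 with decitabine, 7.62, 8.14 and 7.86 with PXD101, 7.85, 7.84 and 7.76 in untreated CP70, and 7.72, 8.58 and 8.66 in A2780. In both, the decitabine arrays were above the untreated ones. Those of DTX3L also lay above every A2780 array (0.58 ± 0.19, adjusted p = 0.0308; 0.33 and adjusted p = 0.162 without A2780 replicate 1), those of PARP14 lay within the A2780 range, and PARP14 differed by 0.39 ± 0.19 (adjusted p = 0.256).

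Among the guanylate-binding proteins, TRIM21 and the nuclear-body genes, 3 of 6 rose (median 0.76). SP110, a nuclear-body protein, read 8.14, 8.36 and 8.35 with both drugs, 8.19, 8.51 and 8.29 with decitabine, 7.56, 7.88 and 7.77 with PXD101, 6.93, 7.56 and 7.16 in untreated CP70, and 6.82, 7.17 and 7.48 in A2780. It changed by 1.11 ± 0.17 (adjusted p = 0.00103), with PXD101 arrays between. GBP1, a GTPase that coats intracellular pathogens, read 10.04, 10.02 and 10.06 with both drugs, 9.87, 9.96 and 9.94 with decitabine, 9.72, 9.80 and 9.68 with PXD101, 8.24, 9.64 and 8.63 in untreated CP70, and 10.03, 10.69 and 10.85 in A2780. All CP70 arrays with any drug lay between 9.68 and 10.06 and untreated replicate 2 just below them, so that its change of 1.09 ± 0.26 (adjusted p = 0.02) rests on untreated replicates 1 and 3; against replicate 2 alone it was 0.29 and not called. TRIM21, the cytosolic receptor for antibody-coated virions, read 7.40, 7.52 and 7.58 with both drugs, 7.51, 7.78 and 7.33 with decitabine, 6.98, 7.24 and 6.91 with PXD101, 6.80, 6.93 and 6.92 in untreated CP70, and 6.59, 6.89 and 7.16 in A2780. It changed by 0.66 ± 0.14 (adjusted p = 0.0111). IFI16, a sensor of nuclear DNA, read 6.82, 7.17 and 6.84 with both drugs, 6.33, 7.17 and 6.35 with decitabine, 5.51, 5.63 and 5.38 with PXD101, 5.92, 5.59 and 5.72 in untreated CP70, and 5.30, 6.15 and 6.79 in A2780. It differed by 0.87 ± 0.29 (not called, adjusted p = 0.0823), with decitabine replicate 2 well above the other 2.

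The other interferon-induced proteins rose in 7 of 8 cases (median 1.5) and include the largest change. IFI27, a small mitochondrial protein, read 9.24, 10.09 and 9.56 with both drugs, 9.42, 10.28 and 9.45 with decitabine, 3.75, 4.06 and 3.81 with PXD101, 4.98, 4.25 and 5.07 in untreated CP70, and 4.83, 7.87 and 8.68 in A2780. It was 31-fold higher with decitabine (4.96 ± 0.66, adjusted p = 0.00026), and its PXD101 arrays, all below 4.10, were the lowest of the 5 groups. A2780 was mixed, with replicate 1 at the untreated CP70 level and replicates 2 and 3 well above it. XAF1, which antagonises the apoptosis inhibitor XIAP, read 7.06, 7.36 and 7.35 with both drugs, 7.53, 7.87 and 7.47 with decitabine, 4.10, 5.16 and 4.66 with PXD101, 4.49, 5.10 and 4.56 in untreated CP70, and 4.10, 5.94 and 6.34 in A2780. It changed by 2.91 ± 0.42 (7.5-fold; adjusted p = 0.000557). IFI44 read 6.80, 7.24 and 7.39 with both drugs, 7.10, 7.49 and 6.93 with decitabine, 4.66, 5.27 and 5.32 with PXD101, 4.61, 5.19 and 4.59 in untreated CP70, and 3.81, 3.98 and 4.05 in A2780. It changed by 2.38 ± 0.21 (adjusted p = 4.38e-06), and its neighbour IFI44L differed by 0.82 ± 0.31 (not called, adjusted p = 0.122). IFI6, a protein of the endoplasmic reticulum, read 9.97, 10.53 and 10.25 with both drugs, 9.97, 10.66 and 9.89 with decitabine, 8.34, 8.85 and 8.71 with PXD101, 8.41, 8.31 and 8.60 in untreated CP70, and 8.44, 8.37 and 8.98 in A2780. It changed by 1.73 ± 0.21 (adjusted p = 0.000126), with no overlap between the 6 arrays given decitabine and the other 9. LGALS3BP, a secreted glycoprotein, PLSCR1, a phospholipid scramblase, and EPSTI1 changed by 1.27 ± 0.34, 0.98 ± 0.16 and 0.58 ± 0.16 (adjusted p = 0.0315, 0.00179 and 0.0427). The plot of 9 members sets several of these patterns side by side.

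**Figure D4:**
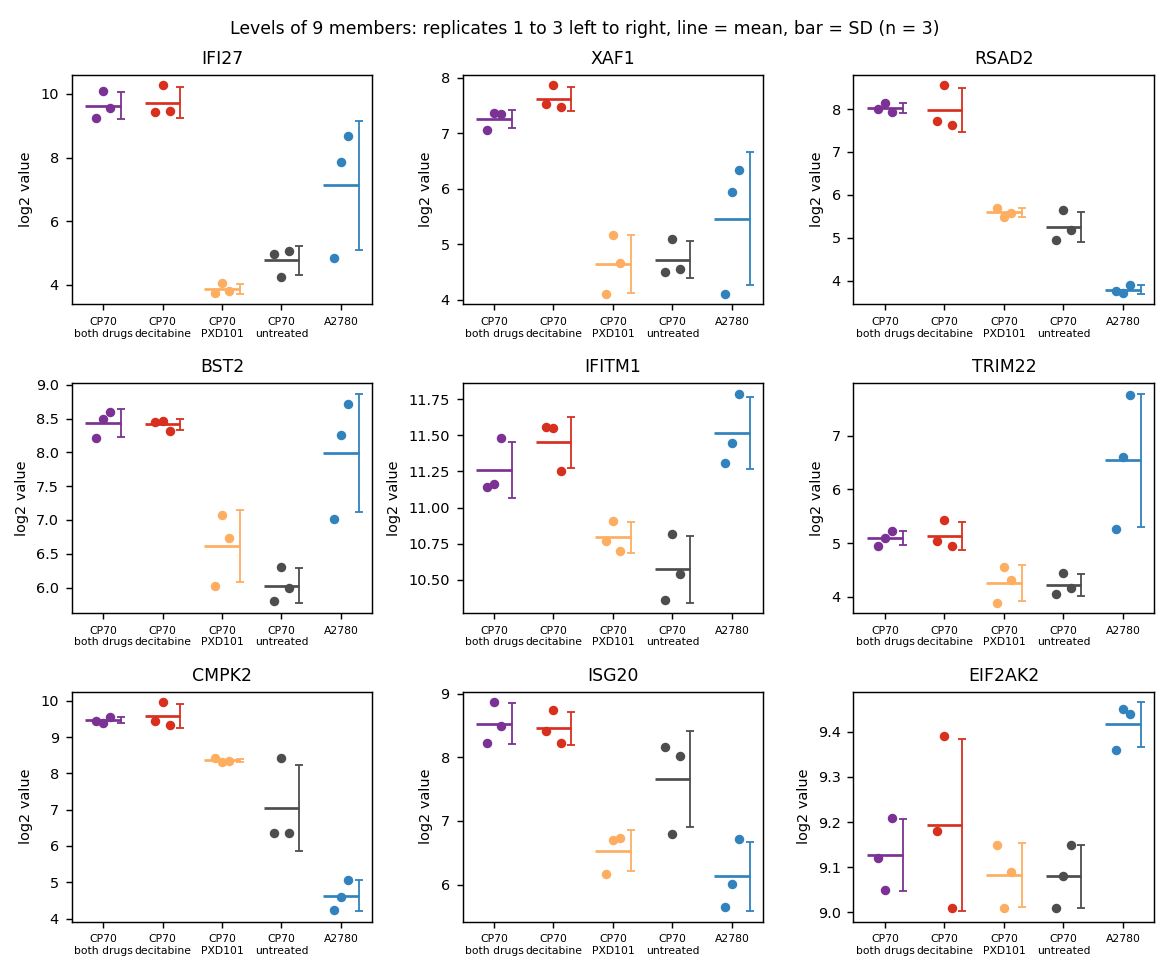
Log2 values of 9 members in the 5 groups, with points for replicates 1 to 3 from left to right, lines for the mean and bars for the SD (n = 3); each panel has its own axis. IFI27, XAF1 and RSAD2 have all arrays given decitabine above the rest, TRIM22 and EIF2AK2 are highest in A2780, and in CMPK2 and ISG20 untreated CP70 replicate 2 lies at the PXD101 level.

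CXCL10 and CXCL11 are chemokines that draw in T cells through the receptor CXCR3. CXCL11 read 5.37, 5.54 and 5.53 with both drugs, 5.07, 5.28 and 4.90 with decitabine, 4.42, 4.86 and 4.71 with PXD101, 4.40, 4.39 and 4.68 in untreated CP70, and 3.96, 3.92 and 4.17 in A2780. It changed by 0.59 ± 0.13 with decitabine (adjusted p = 0.0113) and by 0.99 ± 0.13 with both drugs (adjusted p = 0.000194). CXCL10 read 5.84, 5.91 and 5.72 with both drugs, 5.56, 5.96 and 5.53 with decitabine, 4.61, 5.06 and 4.94 with PXD101, 5.33, 5.13 and 5.19 in untreated CP70, and 4.49, 4.97 and 4.93 in A2780. Its change of 0.47 ± 0.15 with decitabine was not called (adjusted p = 0.0742) and that of 0.61 ± 0.15 with both drugs was (adjusted p = 0.0197). Both stayed below the median gene on every array.

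Of the 31 calls with decitabine, 10 were lost when some single array was left out; the change and its adjusted p without that array are given in brackets. IFIT3 was no longer called without decitabine replicate 2 (1.32, adjusted p = 0.0534). For IFIT1 this held for untreated CP70 replicate 1 (0.52, adjusted p = 0.0548) or untreated CP70 replicate 3 (0.57, adjusted p = 0.0541). SAMD9 was no longer called without untreated CP70 replicate 1 (1.07, adjusted p = 0.0569) or decitabine replicate 2 (0.83, adjusted p = 0.0526). For TRIM21 this held for untreated CP70 replicate 1 (0.62, adjusted p = 0.051) or decitabine replicate 2 (0.53, adjusted p = 0.0547). CXCL11 was no longer called without untreated CP70 replicate 1 (0.55, adjusted p = 0.0541) or decitabine replicate 2 (0.49, adjusted p = 0.0552). These 5 lost the call without 1 or 2 of the 6 arrays compared, and the next 5 without 3 or more. For GBP1 this held for untreated CP70 replicate 1 (0.79, adjusted p = 0.0963), untreated CP70 replicate 3 (0.99, adjusted p = 0.0913), decitabine replicate 2 (1.07, adjusted p = 0.0612) or decitabine replicate 3 (1.08, adjusted p = 0.0646). PARP9 was no longer called without untreated CP70 replicate 1 (0.76, adjusted p = 0.124), untreated CP70 replicate 3 (0.78, adjusted p = 0.12), decitabine replicate 1 (0.76, adjusted p = 0.096) or decitabine replicate 2 (0.63, adjusted p = 0.153). For PARP12 this held for untreated CP70 replicate 1 (0.56, adjusted p = 0.0901), untreated CP70 replicate 3 (0.60, adjusted p = 0.0768) or decitabine replicate 2 (0.50, adjusted p = 0.0969). EPSTI1 was no longer called without untreated CP70 replicate 2 (0.46, adjusted p = 0.0644), untreated CP70 replicate 3 (0.51, adjusted p = 0.172), decitabine replicate 2 (0.52, adjusted p = 0.132) or decitabine replicate 3 (0.52, adjusted p = 0.15). For LGALS3BP this held for untreated CP70 replicate 1 (1.04, adjusted p = 0.14), untreated CP70 replicate 3 (1.28, adjusted p = 0.0909), decitabine replicate 1 (1.24, adjusted p = 0.0785), decitabine replicate 2 (1.27, adjusted p = 0.0795) or decitabine replicate 3 (1.30, adjusted p = 0.0819).

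With both drugs, 29 of 47 members were called higher than in untreated CP70 and 0 lower, where 6.17% of all genes were called higher and 4.22% lower; the members' median was 0.87. All 47 changes were positive, and the arrays did not overlap in 41, as in 11.9% of all genes (11.7% below). Rank product called 18 members higher and 0 lower (1.49% and 0.764% of all genes). Leaving out 1 array ended the call of 9 members, among them CXCL10 without untreated CP70 replicate 3 (0.59, adjusted p = 0.0698), both-drug replicate 1 (0.60, adjusted p = 0.0617) or both-drug replicate 2 (0.56, adjusted p = 0.0881) and IFI16 without untreated CP70 replicate 3 (1.19, adjusted p = 0.0568) or both-drug replicate 2 (1.09, adjusted p = 0.0815); the others were IFIT1, IFIT3, IFITM3, MX2, OAS3, PARP12 and TRIM21. Without untreated replicate 2 the count was 31, where 15.1% of all genes were called higher, and against it alone 15 with a median of 0.70, where 2.89% were. The comparison shares its untreated arrays with that of decitabine, and the changes of the leading members stood side by side at 4.87 with both drugs and 4.96 with decitabine for IFI27, 2.77 and 2.72 for RSAD2, and 2.54 and 2.91 for XAF1.

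Both drugs and decitabine alone were also compared directly. No member was called (0.0101% of all genes were called higher, 2 genes, and 0.0% lower), the changes ran from -0.52 for SAMD9 to 0.40 for CXCL11, and 1 member, CXCL11, had an unadjusted p under 0.05; rank product called 0 in each direction (0.0961% of all genes higher and 0.00506% lower). The interval of the difference lay within 1 log2 unit of 0 for RSAD2 (-0.40 to 0.49) and OAS1 (-0.54 to 0.41), and was wider for IFI27 (-1.51 to 1.33), so that a 2-fold difference in IFI27 is within what these arrays allow. The PXD101 exposure in the combined arm was shorter than in the arm with PXD101 alone.

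PXD101 alone changed few of these genes. GBP1 rose by 0.90 ± 0.26 (adjusted p = 0.0448) and ISG20 fell by 1.13 (SE 0.33, adjusted p = 0.0435), 1 of 47 each, where 5.57% of all genes were called higher and 5.15% lower. The median of the members was 0.04. Both calls were lost when any 1 of 5 arrays was left out, namely untreated replicate 1 or 3 or any PXD101 array, with adjusted p between 0.0975 and 0.242 for GBP1 and between 0.0809 and 0.23 for ISG20. Leaving out untreated replicate 2 gave 8 calls, 6 higher and 2 lower, in a fit that called 16.9% of all genes higher and 12.1% lower, so that the members' share was no larger than that of all genes, and keeping it as the sole untreated array gave 0. CMPK2 had the largest difference and was not called, 1.31 ± 0.40 (adjusted p = 0.0513), with PXD101 arrays between 8.32 and 8.42 and untreated arrays between 6.35 and 8.43. IFI27 stood at 3.87 ± 0.17 with PXD101 and 4.76 ± 0.45 in untreated CP70 (mean ± SD), a difference of -0.89 ± 0.66 (not called, adjusted p = 0.435).

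Decitabine and both drugs were also set against PXD101, which leaves out the untreated CP70 arrays. Decitabine over PXD101 had 31 of 47 members called higher and 0 lower (4.90% of all genes higher, 3.26% lower), with a median of 0.86, and 20 higher by rank product (2.33% of all genes, 1.41% lower). The count was 19 without decitabine replicate 2 and 20 without PXD101 replicate 1, where 3.20% and 3.49% of all genes were called higher. Both drugs over PXD101 had 25 higher and 0 lower (5.91% and 4.03% of all genes), with a median of 0.82, and 20 higher by rank product (2.55% of all genes, 1.55% lower). IFI27 was 5.84 above PXD101 with decitabine (adjusted p = 5.39e-05) and 5.76 with both drugs (adjusted p = 4.99e-05). IFIT2 and ISG20, not called for decitabine over untreated CP70, were 1.12 ± 0.25 and 1.93 ± 0.33 higher with decitabine than with PXD101 (adjusted p = 0.0117 and 0.00193). GBP1 and CMPK2, high on the PXD101 arrays, were not called here (0.19 and 1.23).

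The part of the response to both drugs that differs from the sum of the single responses was called in 0 members (0.0152% of all genes higher, 3 genes, and 0.0% lower); 2 members had an unadjusted p under 0.05 upward and 5 downward. It was -1.43 ± 0.57 for CMPK2, 1.21 ± 0.47 for ISG20, 0.80 ± 0.94 for IFI27 and -0.78 ± 0.37 for GBP1, the 4 members furthest from 0. PXD101 was given for 48 h alone and for 24 h in the combined arm. The sum of the single responses is therefore not one of the same exposures. Without untreated CP70 replicate 2, 7 members were called, 6 of them below the sum, in a fit that called 8.66% of all genes above and 11.9% below it. The changes of the members and of all genes are compared in the histograms.

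**Figure D5:**
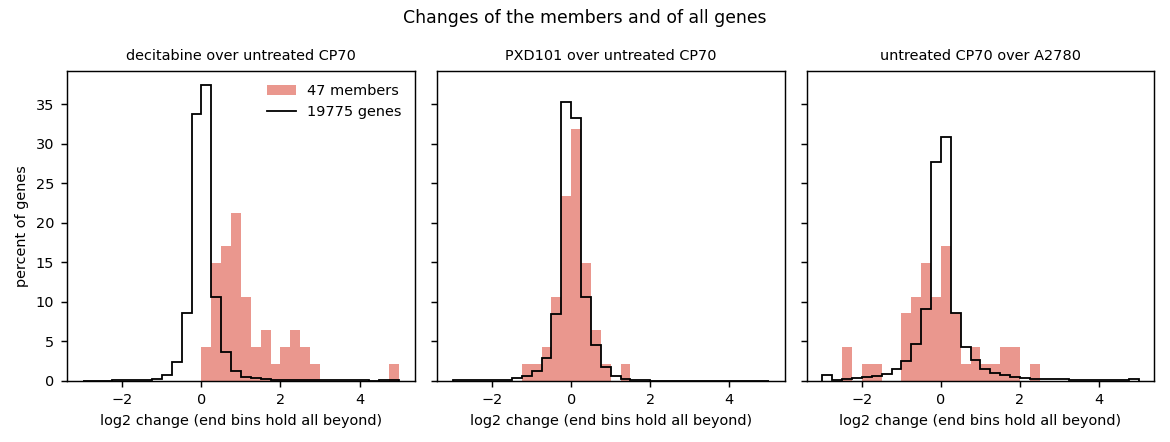
Share of genes (percent) by log2 change in bins, for the 47 members (filled) and all 19775 genes (line), in 3 contrasts; the end bins hold everything beyond them. With decitabine the members lie to the right of 0 and the bulk of all genes at 0, with PXD101 both lie around 0, and for untreated CP70 over A2780 the members spread to both sides.

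The comparison of the resistant line with its parent asked whether the members already differ without treatment. They differed in both directions: 12 of 47 were higher in untreated CP70 and 10 lower, where 16.1% of all genes were called higher and 15.2% lower, and the median was -0.07. Arrays did not overlap in 13 members above (20.6% of all genes) and 10 below (17.7%). Rank product called 3 higher and 4 lower (2.67% and 2.52% of all genes). Without untreated CP70 replicate 2 the counts were again 12 and 10 (18.4% and 19.8% of all genes); against it alone they were 6 and 6 (9.67% and 7.37%). Without A2780 replicate 1 they were 9 higher and 20 lower, where 13.9% of all genes were called higher and 13.6% lower, so that the balance between directions rests on that array. The actin difference was larger in untreated CP70 than in A2780, as given above.

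Lower in CP70 were 6 of 8 restriction factors, namely IFITM1, IFITM2, IFITM3, BST2, MX1 and TRIM22, with IFIT1, EIF2AK2, GBP1 and IFI27. TRIM22 was 4.99-fold lower in untreated CP70 than in A2780 (-2.32 ± 0.41, adjusted p = 0.000456), the values being those given above, and BST2 3.9-fold lower (-1.97 ± 0.33, adjusted p = 0.000302). IFI27 differed by -2.36 ± 0.66 (adjusted p = 0.013), with A2780 replicate 1 at the CP70 level; it was not called without A2780 replicate 2 (-1.99, adjusted p = 0.0655) or A2780 replicate 3 (-1.58, adjusted p = 0.0739). Higher in CP70 were IFIT2, IFIT3, OASL, RSAD2, HERC5, HERC6, CMPK2, ISG20, IFI44, IFI44L, CXCL10 and CXCL11. IFIT2 read 10.61, 11.11 and 11.37 with both drugs, 11.31, 11.35 and 10.73 with decitabine, 9.60, 10.41 and 10.03 with PXD101, 10.67, 10.31 and 10.73 in untreated CP70, and 8.26, 8.74 and 8.99 in A2780. Its difference between untreated CP70 and A2780, 1.90 ± 0.25 (adjusted p = 2.82e-05), was larger than any between CP70 groups. HERC6 (1.82 ± 0.18, adjusted p = 1.73e-06) and CMPK2 (2.42 ± 0.40, adjusted p = 0.000268) also stood well above A2780 before any drug. Of the 2 probe sets of HERC6, however, only 1 was called, and their differences ranged from -0.05 to 1.82. With single arrays left out, 6 of these 22 calls were lost. OASL was not called without A2780 replicate 1 (0.64, adjusted p = 0.0544), A2780 replicate 2 (0.46, adjusted p = 0.154), untreated CP70 replicate 1 (0.58, adjusted p = 0.0847) or untreated CP70 replicate 3 (0.54, adjusted p = 0.112). IFIT3 was not called without A2780 replicate 1 (0.58, adjusted p = 0.113), untreated CP70 replicate 1 (1.08, adjusted p = 0.056) or untreated CP70 replicate 3 (0.98, adjusted p = 0.084). EIF2AK2 was not called without A2780 replicate 2 (-0.32, adjusted p = 0.0577), A2780 replicate 3 (-0.32, adjusted p = 0.0509) or untreated CP70 replicate 1 (-0.30, adjusted p = 0.071). CXCL10 was not called without A2780 replicate 1 (0.27, adjusted p = 0.223), A2780 replicate 3 (0.49, adjusted p = 0.0516), untreated CP70 replicate 1 (0.36, adjusted p = 0.155) or untreated CP70 replicate 3 (0.43, adjusted p = 0.0955). CXCL11 was not called without A2780 replicate 2 (0.42, adjusted p = 0.0524) or untreated CP70 replicate 3 (0.38, adjusted p = 0.0696).

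Set against A2780, decitabine-treated CP70 had 29 members higher and 1 lower (17.0% and 12.9% of all genes), and CP70 with both drugs 29 higher and 2 lower (17.3% and 13.6%). Rank product called 14 members higher and 0 lower in each (of all genes, 2.97% higher and 2.83% lower with decitabine, and 2.93% and 2.90% with both drugs). The largest were CMPK2 (4.96 ± 0.40 with decitabine) and RSAD2 (4.18 ± 0.21). TRIM22 stayed below A2780, with a difference of -1.41 with decitabine (adjusted p = 0.0162) and -1.46 with both drugs (adjusted p = 0.013), and EIF2AK2 was lower with both drugs (-0.29, adjusted p = 0.0351). TRIM22 was not called with decitabine without A2780 replicate 3 (-0.80, adjusted p = 0.0681), decitabine replicate 1 (-1.36, adjusted p = 0.0507) or decitabine replicate 3 (-1.31, adjusted p = 0.0545), nor with both drugs without A2780 replicate 3 (-0.85, adjusted p = 0.0521), and EIF2AK2 not without A2780 replicate 2 (-0.27, adjusted p = 0.102), A2780 replicate 3 (-0.28, adjusted p = 0.0907), both-drug replicate 1 (-0.29, adjusted p = 0.0797) or both-drug replicate 2 (-0.25, adjusted p = 0.129). For the members that were lower in untreated CP70, the treated level could be told from that of the parent in some and not in others. IFIT1 and the 3 IFITM genes differed by -0.15, -0.06, 0.03 and -0.03 relative to A2780 and BST2 by 0.42, none of them called, with intervals of -0.38 to 0.26 for IFITM1 and -0.29 to 1.12 for BST2. MX1 and IFI27 ended above the parent, by 1.23 ± 0.21 and 2.59 ± 0.66 (adjusted p = 0.000373 and 0.00728); without A2780 replicate 1, IFI27 was 1.45 above it (adjusted p = 0.00429).

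Across the 47 members, 13 were called in none of the 3 comparisons of a treatment with untreated CP70: IFIT2, IFIT5, EIF2AK2, DDX60, TRIM22, HERC6, SAMHD1, SAMD9L, PARP14, DTX3L, GBP2, IFI35 and IFI44L. Over the 15 arrays IFIT5 ranged from 9.87 to 10.62, DDX60 from 7.52 to 9.14, GBP2 from 4.98 to 6.05, IFI35 from 7.94 to 9.13 and IFI44L from 5.19 to 8.91. The 13 were not all dim, since of these TRIM22 and SAMD9L alone averaged below 4.34 in untreated CP70. In untreated CP70, 6 members averaged below that level (MX2, TRIM22, SAMD9, SAMD9L, PARP12 and EPSTI1), against 0 with decitabine.

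The members also varied together within groups. Replicate 1 with both drugs was the lowest of its group in 37 of 47 members and decitabine replicate 2 the highest in 42, while A2780 replicate 1 was the lowest in 36 and replicate 3 the highest in 39. The per-array median of the members was 8.14, 8.43 and 8.43 with both drugs, 8.27, 8.59 and 8.19 with decitabine, 7.02, 7.24 and 7.01 with PXD101, 6.93, 7.38 and 7.16 in untreated CP70, and 6.59, 7.04 and 7.48 in A2780. The arrays given decitabine thus lay above all others, and A2780 spanned the widest range. Their median SD was 0.256 with decitabine, where that of all genes was 0.140, and 0.397 in A2780, where it was 0.111. After subtraction of group means, pairs of members correlated at 0.438 on average over the 15 arrays, and pairs of all genes at 0.005; the pairs share arrays and some share probe sequence.

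Relative to the median of the other members over the 15 arrays, IFI6 (r = 0.974), TRIM21 (0.967) and OAS1 (0.961) were most alike, and EIF2AK2 (-0.059), TRIM22 (0.043) and GBP1 (0.271) least. Among genes outside the set, the 10 most like the members' median were IRF7 (r = 0.982), ECM1 (0.977), ERCC1 (0.976), FBXL13 (0.973), FAM131B-AS2 (0.971), MAGEA11 (0.966), DUSP5 (0.963), CACNA1A (0.962), SERTAD1 (0.962) and MFNG (0.961). These are correlations over 15 arrays of which 6 had decitabine, and no p is given.

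Some members are neighbours in the genome. Of 14 adjacent pairs, both genes rose with decitabine in 6, and 1 of the 2 in the other 8. Among all members 31 of 47 were called higher, and whether neighbours were called together more often than that was not tested. CMPK2 and RSAD2 on chromosome 2 both rose (2.54 and 2.72), as did the run OAS1, OAS3 and OAS2 on chromosome 12. HERC5 rose by 1.66 beside HERC6 at 0.47 (not called), IFI44 by 2.38 beside IFI44L at 0.82 (not called) and PARP9 by 0.77 beside DTX3L at 0.44 (not called). These 3 differences between neighbours were not tested.

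Set beside the promoters, members with a response element match had a median change of 1.04 with decitabine, 20 of 26 called, and those without one 0.59, 6 of 13 called. XAF1 and OAS1, with changes of 2.91 and 2.23, are among those without a match. OAS1 is counted there although its window repeats GAAA with a shorter gap, so that no match to the pattern does not mean no element. The comparison is a description of the windows in the table, and the difference was not tested.

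With decitabine, probe sets of one gene mostly pointed the same way. The 47 members had 87 probe sets, of which 41 were called higher with decitabine and 0 lower, in a fit of all single-symbol probe sets. The share of all probe sets called in that fit is not given here. The 4.87% of genes called higher is for 1 probe set a gene, so the 41 have no background beside them. Of the 25 members with several, all were called in 5, some in 9 and none in 11, and signs differed in 4. OAS2 ranged from 0.60 to 2.25 over its 3 probe sets, XAF1 from 0.29 to 2.91 over 3 and IFI44 from 0.35 to 2.38 over 2, whereas RSAD2 was read alike by both (2.72 and 2.76). For untreated CP70 over A2780, signs differed in 5 of the 25. There HERC6 ranged from -0.05 to 1.82 over 2, IFI44 from -0.05 to 0.85 over 2 and GBP1 from -1.81 to -0.0 over 4. IFIT2 was read alike by both of its probe sets (1.75 and 1.90).

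Upstream of the effectors, no call was made for the interferons themselves. Of 18 measured interferon genes, limma called 0 with both drugs, decitabine or PXD101 against untreated CP70, with 4, 3 and 3 at an unadjusted p under 0.05, and rank product called 0. Of the 18, 15 were below the lower quartile of gene values on every array. IFNB1, the interferon most cell types make, read 4.51, 4.16 and 4.21 with both drugs, 4.42, 4.12 and 3.91 with decitabine, 3.90, 3.68 and 4.03 with PXD101, 4.03, 3.73 and 3.67 in untreated CP70, and 3.80, 4.03 and 3.80 in A2780. Its difference with both drugs was 0.48 ± 0.15 (not called, adjusted p = 0.0507), and the difference of IFNL1 was 0.32 ± 0.14 with decitabine (adjusted p = 0.187). RNA at 96 h does not show what was made earlier, and protein was not measured.

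Of 9 receptor and kinase genes, IFNGR2, a chain of the receptor for interferon gamma, rose by 0.72 ± 0.10 with decitabine (adjusted p = 0.000375), and IFNLR1, the specific chain of the lambda receptor, fell by 0.95 (SE 0.19, adjusted p = 0.00543). Of 6 IRF genes measured, which encode interferon regulatory factors, 3 rose. IRF7, a factor that amplifies the interferon response, rose by 1.30 ± 0.16 (adjusted p = 0.000121), and its arrays read 5.64, 5.92 and 5.41 with decitabine and 4.21, 4.46 and 4.41 in untreated CP70. IRF9, the DNA-binding part of ISGF3, rose by 1.18 ± 0.25 (adjusted p = 0.0083), and IRF3 by 0.70 ± 0.11 (adjusted p = 0.0013). Of 14 sensors and adaptors, 6 rose and 1 fell. RIGI and IFIH1, which detect double-stranded RNA in the cytosol, rose by 2.14 ± 0.23 (adjusted p = 2.83e-05) and 1.73 ± 0.25 (adjusted p = 0.000512), and MYD88, an adaptor of Toll-like receptors, by 0.80 ± 0.11 (adjusted p = 0.00025). TRIM25, a ubiquitin ligase of the RIG-I pathway, fell by 0.54 (SE 0.14, adjusted p = 0.0306). Of 4 negative regulators measured, limma and rank product each called 0 with decitabine, and 0 had an unadjusted p under 0.05.

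Markers of other cells were checked for the same contrast. Of 14 measured leukocyte markers, 1 rose with decitabine, TYROBP, by 1.30 ± 0.24 (adjusted p = 0.00368), while PTPRC, MS4A1, LYZ, NKG7 and CLEC4C were below the lower quartile on every array. The log2 of the list's summed level was 8.63 to 8.70 with both drugs, 8.60 to 8.76 with decitabine, 8.29 to 8.35 with PXD101, 8.32 to 8.39 in untreated CP70 and 8.24 to 8.43 in A2780. PTPRC, which marks nearly all leukocytes, read 3.86, 3.67 and 4.09 with decitabine and 3.87, 4.32 and 3.67 in untreated CP70. Of 14 fibroblast and endothelial markers, 2 rose and 2 fell, and the summed level was 12.17 to 12.37 with both drugs, 12.40 to 12.51 with decitabine, 12.77 to 12.78 with PXD101, 12.76 to 12.79 in untreated CP70 and 13.02 to 13.20 in A2780. Of 12 epithelial markers, KRT8, KRT18, KRT19 and EPCAM rose with decitabine, and the summed level was 12.04 to 12.55 with it and 11.55 to 12.33 in untreated CP70. The part of these differences in the members' changes was not tested.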

How the data were processed

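Gene expression was measured in 15 samples, 3 for each of 5 groups, on 1-colour Affymetrix arrays after NuGEN WT-Ovation Pico amplification, per the labels' protocols. The authors deposited log2 values for 54675 probe sets; the submitters' processing notes name R 2.10.1 and affy, and how background was corrected, arrays normalized and probes summarized is not given in the sources used here. No further normalization was applied. Signal over background and depth are unknown, and 3 arrays a group limit the precision.

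Probe sets with a single symbol in GEO's platform annotation (41097; 1801 had several and 11777 none) were kept, symbols were updated through Entrez IDs (41043 matched), and the probe set with the highest mean stood for each of 19775 genes. R 4.3.3 with limma 3.58.1 (lmFit, eBayes) fitted group means over all arrays, with Benjamini-Hochberg adjustment over all genes and a threshold of 0.05. On simulated data for decitabine over untreated CP70 (19775 genes), the procedure recovered 18 of 50 genes changed by 0.5, 46 of 50 changed by 1.0 and 50 of 50 changed by 2.0 on the log2 scale. The simulated noise was independent between genes, without the shared shift of untreated CP70 replicate 2, so recovery on the real arrays may differ. Rank product (9 pairs, 100 permutations, percentage of false positives under 5), the test that the submitters name, was an alternative, beside other probe set rules, filters, scalings, array weights, a replicate block and left-out arrays. The labels do not say whether the replicate numbers pair the samples, and the main fit took them as unpaired. Over 30 pairs of same-numbered arrays, deviations from group means correlated at -0.38 to 0.49, over 0.1 in 7. Between arrays of different number and group they ran from -0.459 to 0.474. Such ranges cannot settle whether samples were paired.

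The members, gene lists and tests were chosen with earlier results of these data known. Values on every array are given, in each role, for up to 4 members with the largest change with decitabine, and for those with the largest differences between the lines or from additivity; list genes were named by smallest p, up to 3 a list. TRIM25, IRF3, IFNL1, PTPRC, PAX8, FOLR1, the called epithelial markers and the markers listed as low were named after their values were seen. Promoter windows are from RefSeq (GRCh38.p14), with both strands searched. Symbols without a single-symbol probe set or a listed promoter are not analysed here. Figures were drawn with matplotlib 3.10.9.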

Additional observations from a re-analysis of the deposited data

How the results depend on the processing

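The counts of called members keep their direction in the comparisons with decitabine, but their size depends on which untreated arrays are used. Of the 31 members called for decitabine over untreated CP70, 11 kept the call in every refit that tested them (BST2, HERC5, IFI27, IFI44, IFI6, ISG15, MX1, OAS1, OASL, RSAD2 and XAF1); IFI44, RSAD2 and XAF1 were not in the refit of genes above the median level. Leaving out 1 array at a time gave 22 to 30 called members for decitabine over untreated CP70, 0 to 8 for PXD101, 23 to 31 for both drugs, 18 to 29 for untreated CP70 over A2780 (29 without A2780 replicate 1, 9 higher and 20 lower), 0 for both drugs over decitabine, 17 to 25 for both drugs over PXD101, 19 to 31 for decitabine over PXD101 (19 without decitabine replicate 2, 20 without PXD101 replicate 1), 28 to 33 for decitabine over A2780, 25 to 29 for both drugs over A2780 and 0 to 7 for the non-additive part (7 without untreated CP70 replicate 2). With replicate 2 as the only untreated CP70 array, the counts were 15 for decitabine, 0 for PXD101, 15 for both drugs (median change 0.70) and 12 for untreated CP70 over A2780. Fits of only the arrays compared gave 20 for decitabine, 0 for PXD101 and 40 for both drugs over PXD101. Of all genes they called 2.07%, 0.0% and 8.33% higher. Rank product called 18 for decitabine, 18 for both drugs, 7 for untreated CP70 over A2780, 20 for decitabine over PXD101, and 14 for decitabine and 14 for both drugs over A2780. Genes above the median level, which leaves 33 members, gave 4 for PXD101 (3 higher, 1 lower) and 16 for both drugs over PXD101 (16 higher, 0 lower). They gave 19 for decitabine over A2780 (19 higher, 0 lower) and 20 for both drugs over A2780 (19 higher, 1 lower). For PXD101 the members' share in that refit was smaller than that of all genes tested, in each direction. In the other comparisons just named, a larger share of members than of all genes tested was called higher, and a smaller share lower. For PXD101 the mean of all probe sets gave 1, every probe set tested gave 1, and array weights gave 18 (11 higher, 7 lower). With array weights, 23.2% of all genes were called higher for PXD101 and 20.5% lower. With the mean of all probe sets the shares were 4.35% and 4.0%. Array weights also gave 11 for the non-additive part (1 higher, 10 lower), where 12.1% of all genes were called higher and 14.9% lower. They turned OAS3 in untreated CP70 over A2780 to -0.31 (adjusted p = 0.0407). The cause of these differences was not tested, and some of the refits also had fewer arrays or genes. With the replicate block, 30 members were called for decitabine, 2 for PXD101 (2 higher, 0 lower), 30 for both drugs, 23 for untreated CP70 over A2780, 26 for both drugs over PXD101 and 30 for decitabine over PXD101. Of all genes, 4.14%, 2.94%, 5.32%, 15.3%, 5.18% and 4.21% were called higher in these, in the same order. For untreated CP70 over A2780, 14.3% were called lower. Whether the replicate numbers pair the samples is not known.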
